A study of Mus musculus with 43 samples.

Results

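The opioid receptor genes *Oprm1* (μ), *Oprd1* (δ), *Oprk1* (κ) and *Oprl1* (nociceptin receptor) were examined in single NAcLat→VTA cells, neurons of the lateral nucleus accumbens that project to the ventral tegmental area. They were taken by symbol, as 4 of the 35825 genes in the deposited tables, and all 4 had counts in at least 15 of the 43 cells. C57BL/6J mice carried fluorescent retrobeads in the VTA, and the cytosol of a bead-labelled cell was drawn into a patch pipette and sequenced as 1 library, so RNA left behind in dendrites and axons is not in these data. REG cells (n = 23) came from mice on standard chow, and HFD cells (n = 20) came from mice that had standard chow and high-fat chow freely available for at least 4 weeks. The study's methods give an age of 6 to 8 weeks and both sexes for its mouse lines as a whole. By the labels, batch 1 held 13 REG and 5 HFD cells and batch 2 held 10 REG and 15 HFD cells. Neither labels nor tables tie a cell to its mouse. Each diet therefore counts as 1 sample, and no test was run between diets. Intervals on counts and ratios, called counting intervals, cover the Poisson error of reads only. Amplified reads are not independent molecules, so these intervals are too narrow for the error in molecules. They also leave out the spread between cells and mice. Intervals on shares of cells treat the cells as independent although cells share mice.

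Opioid receptors couple to inhibitory G proteins, which lower adenylyl cyclase activity, open inwardly rectifying potassium channels and close presynaptic calcium channels. The precursors *Penk*, *Pdyn*, *Pomc* and *Pnoc* give rise to enkephalins, dynorphins, β-endorphin and nociceptin. Medium spiny neurons of the direct pathway make dynorphin, and the κ receptor, on which dynorphin acts, is known for lowering transmitter release in the accumbens and its targets. In the dorsal striatum, *Oprm1* is a known mark of the patches called striosomes.

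The 4 genes lie on different chromosomes of GRCm38. *Oprm1* (ENSMUSG00000000766.18) spans chr10:6758506-7038198 on the plus strand, *Oprd1* (ENSMUSG00000050511.1) chr4:132110726-132144486 on the minus strand, *Oprk1* (ENSMUSG00000025905.13) chr1:5588466-5606131 on the plus strand and *Oprl1* (ENSMUSG00000027584.16) chr2:181715016-181720985 on the plus strand. Pairs of coding sequences were 67.0% to 71.0% identical over aligned bases. The 60-base coding stretch in which the 4 were most alike is printed here because it bears on whether a read can be assigned to 1 receptor, with the 43 positions identical in all 4 in capitals.
Oprm1: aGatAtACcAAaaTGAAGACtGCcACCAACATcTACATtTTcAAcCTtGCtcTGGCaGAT
Oprd1: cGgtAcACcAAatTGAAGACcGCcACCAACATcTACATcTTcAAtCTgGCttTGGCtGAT
Oprk1: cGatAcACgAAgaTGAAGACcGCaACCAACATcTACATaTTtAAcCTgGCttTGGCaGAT
Oprl1: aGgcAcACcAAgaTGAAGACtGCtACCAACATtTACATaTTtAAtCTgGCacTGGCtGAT

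No run of 31 bases, the default word length of the program that assigned the reads, was shared between any pair of the 4 receptors, and the longest identical coding run was 25 bases, between *Oprk1* and *Oprl1*. *Oprl1* shared no such word with any other gene. *Oprm1* shared 87 words with other genes, in all 18 of them, and 71 words with *Ipcef1*, the only gene whose exons overlap those of a receptor. *Oprd1* shared 26 words with other genes, in all 30 of them. All 19 *Oprm1* counts above 0 lay within 0.01 of a whole number, as did those of *Oprd1* and *Oprl1*, against 65.5% of counts over all genes. *Ipcef1* had counts in 22 cells, in 11 of the 19 *Oprm1* cells and in 6 of the 9 cells with at least 5 *Oprm1* counts. *Oprk1* shared 37 words with other genes, in all 2767 of them, and 74.3% of its 35 counts were whole.

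Of the direct-pathway markers, *Drd1*, *Tac1* and *Pdyn* were counted in all 43 cells, *Isl1* in 36 and *Chrm4* in 26, and *Ppp1r1b*, a marker of medium spiny neurons as a whole, was in all 43. Of the indirect-pathway markers, *Penk* was counted in 35 cells, *Sp9* in 24, *Adora2a* in 13, *Drd2* in 9 and *Gpr6* in 6. *Drd2* was in 2 REG and 7 HFD cells, with means of 0.528 and 7.67 CPM (counts per 1000000 counts) and a log2 ratio, HFD over REG, of 3.86 (4.58 in batch 1 and 3.38 in batch 2), and its part in the receptor values was not tested. Of 15 genes made outside the brain, 7 had no count and the others were counted in at most 9 cells. Single cells still reached high levels of them, up to 558 TPM (a level divided by transcript length) for *Myh6*, 358 for *Apoa2* and 250 for *Krt14*. The highest receptor value of a cell was 364 TPM, for *Oprl1*. Of these 15 genes, 3 had a log2 ratio above 0 and 3 below. *Krt14*, counted in 7 cells, had 4.75 (6.04 in batch 1 and 3.79 in batch 2). Total counts ran from 176961 to 16919555 with a median of 1426795, and 9 cells lay under 500000. A single gene, *Lars2*, took between 2.33% and 79.8% of the counts of a cell, so that CPM were also taken over totals without *Lars2* and *Gm19220*. In 6 cells, 4 or more of the 7 microglial markers lay above 15 CPM, namely REG 12, REG 20, HFD 4, HFD 7, HFD 16 and HFD 20. The summed microglial level ran from 0.341 to 1326 CPM in REG cells and from 2.61 to 1467 CPM in HFD cells, and all 7 markers had a higher mean in HFD cells.

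*Oprk1* was the receptor found in most cells and *Oprd1* the one found in fewest. A count of *Oprk1* was present in 35 of 43 cells (81.4%, exact Clopper-Pearson 95% interval 66.6 to 91.6%), of *Oprl1* in 25 (58.1%, 42.1 to 73.0%), of *Oprm1* in 19 (44.2%, 29.1 to 60.1%) and of *Oprd1* in 15 (34.9%, 21.01 to 50.9%). Intervals of neighbours in this order overlapped. Thinned to 150000 counts per cell, *Oprk1* was left in 25 cells, *Oprl1* in 18, *Oprm1* in 11 and *Oprd1* in 1. Above 15 CPM, *Oprk1* was found in 19 cells, *Oprl1* in 14, *Oprm1* in 3 and *Oprd1* in none (exact upper limit 8.22%). The filter on low values, which asked for a mean CPM above 4 and for 5 or more cells over 15 CPM, was passed by *Oprk1* and *Oprl1*, 2 of the 4.

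**Figure D1:**
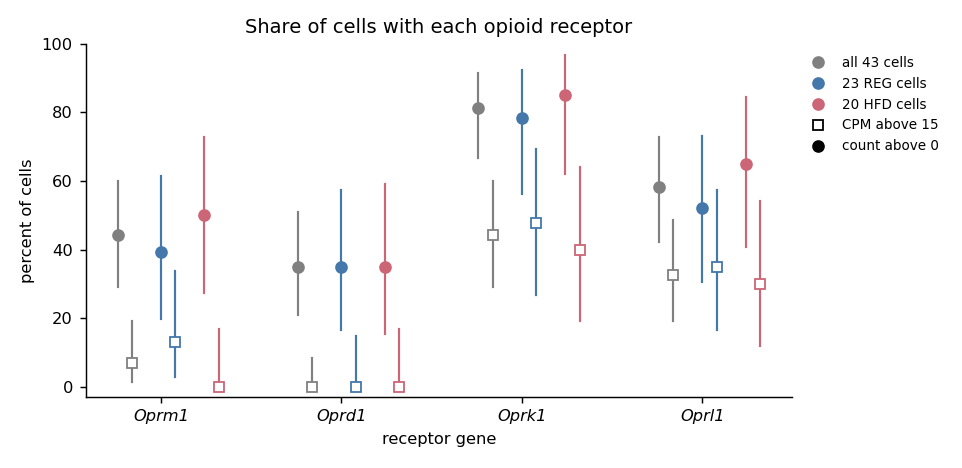
Percent of cells (vertical axis) with each receptor gene (horizontal axis), over all 43 cells and in each diet, at a count above 0 (filled circles) and at a CPM above 15 (open squares), with vertical lines for exact 95% intervals. *Oprk1* is highest at both limits, and no HFD cell holds *Oprm1* or *Oprd1* above 15 CPM.

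An absence in 1 shallow cell says little. Among the 24 cells without *Oprm1*, the level that 3 counts would give ranged from 0.549 to 16.95 CPM, with a median of 2.15. The 28 cells without *Oprd1* had a median total of 1349921 counts, and the 15 cells with it 2610802.

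On TPM, which is divided by transcript length and allows genes to be compared, *Oprl1* and *Oprk1* were at about the same mean and *Oprm1* and *Oprd1* were far lower. The mean was 32.3 TPM for *Oprl1* (SD over cells 70.9), 31.8 for *Oprk1* (SD 54.6), 5.02 for *Oprm1* (SD 11.9) and 0.334 for *Oprd1* (SD 0.918), n = 43 cells. The spread over cells was wider than each mean. Medians gave another picture of the leading pair, with 3.38 TPM for *Oprk1* and 0.685 TPM for *Oprl1*, while those of *Oprm1* and *Oprd1* were 0. The means of *Oprl1* and *Oprk1* did not differ beyond the spread over cells, and their order turned with the batch, with *Oprk1* at 37.0 and *Oprl1* at 15.8 TPM in batch 1 and 28.1 and 44.2 TPM in batch 2. Among the 10802 genes past the filter, 58.1% had a lower mean TPM than *Oprk1* and 58.6% a lower one than *Oprl1*. Of these genes 8.43% were lower than *Oprm1* and none was as low as *Oprd1*. Those 2 receptors did not pass the filter, so their low places follow in part from the choice of genes.

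**Figure D2:**
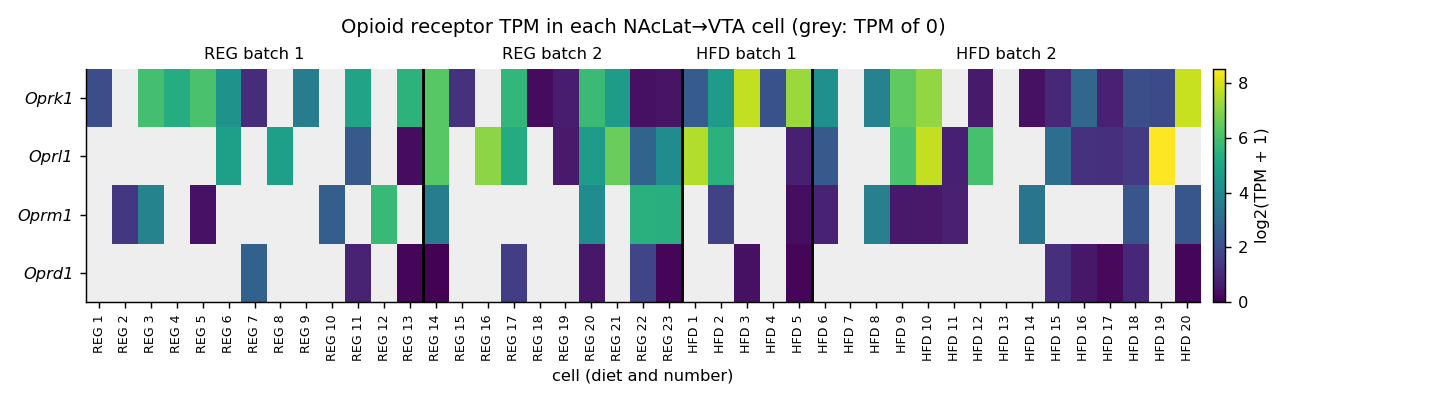
Heat map of receptor levels as log2(TPM + 1), with 1 column per cell, grouped by diet and batch, and 1 row per receptor. Grey marks a TPM of 0. *Oprk1* is the highest receptor in 21 cells and *Oprl1* in 11, and in 20 cells the highest receptor holds over 90% of the summed TPM, in some of them on 1 or 2 counts.

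The 4 receptors were unequal within a cell. On TPM the highest receptor was *Oprk1* in 21 cells, *Oprl1* in 11, *Oprm1* in 8 and *Oprd1* in 1 (REG 7), and in 20 cells the leader held over 90% of the summed TPM of the 4. Some leaders rested on few counts. *Oprm1* led REG 2 and REG 10 with 2 counts and HFD 11 and HFD 18 with 1 count. REG 1, REG 2, REG 10, REG 15 and REG 18 held a single receptor at 1 or 2 counts, so that its share over 90% was fixed by the counting. HFD 7 and HFD 13 had no receptor count. Counting any read, 11 cells held 1 receptor, 13 held 2, 11 held 3 and 6 held all 4. Above 15 CPM, 16 cells held none, 18 held 1, 9 held 2 and none held more.

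Pairs of receptors met in unequal numbers of cells. *Oprk1* and *Oprl1* were both above 15 CPM in 8 cells, which is 42.1% of the *Oprk1* cells and 57.1% of the *Oprl1* cells at that limit. *Oprm1* and *Oprk1* shared no cell at that limit, where *Oprm1* reached it in 3 cells. With any count, *Oprm1* and *Oprk1* shared 15 cells, and all 15 cells with *Oprd1* also had *Oprk1*. Over the 43 cells the Spearman correlation of CPM between receptors lay between −0.06, for *Oprm1* and *Oprl1*, and 0.23, for *Oprd1* and *Oprk1*. These cells share mice, batches and libraries of unequal depth, and the correlations are a description.

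*Oprm1*, which encodes the receptor of morphine, β-endorphin and enkephalins, had a lower mean in HFD cells. Across REG cells its lowest value was 0, its median 0 and its highest 66.4 CPM, and across HFD cells these were 0, 0.129 and 9.62 CPM, so that the medians ran the other way from the means. The diets overlapped, since 14 of 23 REG cells were at 0, but 5 REG cells (REG 3, REG 12, REG 20, REG 22 and REG 23) lay above the highest HFD cell. The 3 cells above 15 CPM were REG 12 with 66.4, REG 22 with 48.3 and REG 23 with 27.5 CPM. The mean was 8.12 CPM (SD 17.2, n = 23) in REG and 1.52 CPM (SD 2.68, n = 20) in HFD cells, a log2 ratio of −2.42 (95% counting interval −3.03 to −1.81), which was −1.46 with TMM scaling, −1.65 with DESeq2 size factors and −1.54 over totals without *Lars2* and *Gm19220*.

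Detection of *Oprm1* did not follow the mean. It was counted in 39.1% of REG cells (9 of 23, 19.7 to 61.5%) and 50.0% of HFD cells (10 of 20, 27.2 to 72.8%), but 7 of those 10 HFD cells held 1 to 4 counts, against 3 of the 9 REG cells. Summed over cells, REG cells held 472 *Oprm1* counts (exact Poisson 95% interval 430 to 517) and HFD cells 62 (47.5 to 79.5). These sums are not scaled by depth. REG 14, the cell with the highest total, gave 162 of the REG counts at only 9.57 CPM. Divided by summed totals, the counts gave a log2 ratio of −2.50. At 5 counts or more, 6 REG and 3 HFD cells held *Oprm1*. The log2 ratio was −3.06 in batch 1, where the 5 HFD cells had 0, 3.81, 0, 0 and 0.258 CPM, and −2.50 in batch 2. With 1 cell left out it ran from −2.90, without HFD 14, to −1.85, without REG 12. REG 12 and REG 20 are 2 of the 6 cells with microglial transcripts, and without all 6 the log2 ratio was −1.60.

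*Oprd1*, encoding the δ receptor for enkephalins, was at the limit of what these libraries show. REG cells had a lowest and a median value of 0 and a highest of 11.2 CPM, in REG 7, and HFD cells had 0, 0 and 4.50 CPM, in HFD 15. REG 7, REG 17 and REG 22 lay above every HFD cell, and the rest overlapped. Counts were present in 34.8% of REG cells (8 of 23, 16.4 to 57.3%) and 35.0% of HFD cells (7 of 20, 15.4 to 59.2%), nearly equal shares. In all, 49 counts were summed in REG and 12 in HFD cells. The means were 1.14 CPM (SD 2.74) for REG and 0.512 CPM (SD 1.17) for HFD, and their log2 ratio, −1.15, had a counting interval from −2.46 to 0.17, which includes 0 and leaves out the spread between cells and mice. Batch 1 gave −2.35 and batch 2 −1.03. The ratio was −0.40 without REG 7, −1.91 without HFD 15 and −2.76 without the 9 cells under 500000 counts.

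*Oprk1*, encoding the κ receptor for dynorphins, had a higher mean in HFD cells. REG cells had a lowest value of 0, a median of 5.87 and a highest value of 197 CPM, in REG 14, and HFD cells had 0, 9.51 and 539 CPM, in HFD 20. HFD 3, HFD 5, HFD 10 and HFD 20 exceeded every REG cell, and the other 16 HFD cells lay within the REG range. The means were 49.3 CPM (SD 62.5) for REG and 93.5 CPM (SD 161) for HFD, a log2 ratio of 0.92 (0.84 to 1.01).

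The share of cells with *Oprk1* was larger in one diet or the other depending on the limit. Above 15 CPM it was found in 47.8% of REG cells (11 of 23, 26.8 to 69.4%) and 40.0% of HFD cells (8 of 20, 19.1 to 63.9%). At 5 counts or more it was found in 11 REG and 12 HFD cells, after thinning in 52.2% of REG and 65.0% of HFD cells, and with any count in 18 of 23 REG and 17 of 20 HFD cells. The cells HFD 20 and HFD 10 held 49.3% of the summed HFD level. In batch 1 the 5 HFD cells had 11.2, 76.1, 341, 7.80 and 291 CPM and the log2 ratio was 1.49, and in batch 2 it was 0.73. Without HFD 20, a cell with microglial transcripts, it was 0.51, and without all 6 such cells 0.75.

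*Oprl1*, which encodes the receptor of nociceptin, showed the same direction with a larger ratio and a stronger hold of single cells. REG cells had a lowest value of 0, a median of 0.267 and a highest value of 264 CPM, in REG 16, and HFD cells had 0, 1.54 and 768 CPM, in HFD 19. HFD 1, HFD 10 and HFD 19 lay above every REG cell, and the other HFD cells overlapped with REG cells. The means were 29.5 CPM (SD 59.6) for REG and 83.7 CPM (SD 189) for HFD, a log2 ratio of 1.50 (1.39 to 1.62). HFD 19 alone held 45.9% of the HFD level, and without it the ratio was 0.69, while without REG 16 it was 2.15. DESeq2 size factors gave 3.21.

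The batches gave unlike values for *Oprl1*. In batch 1 the mean was 7.18 CPM in REG cells, and the 5 HFD cells had 286, 68.5, 0, 0 and 0.773 CPM, for a log2 ratio of 3.31. In batch 2 the means were 58.5 and 87.9 CPM and the ratio was 0.59. The share of cells with a count also went with the batch, 7 of 18 cells in batch 1 (38.9%, 17.3 to 64.3%) and 18 of 25 in batch 2 (72.0%, 50.6 to 87.9%). Above 15 CPM, *Oprl1* was found in 8 REG and 6 HFD cells.

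**Figure D3:**
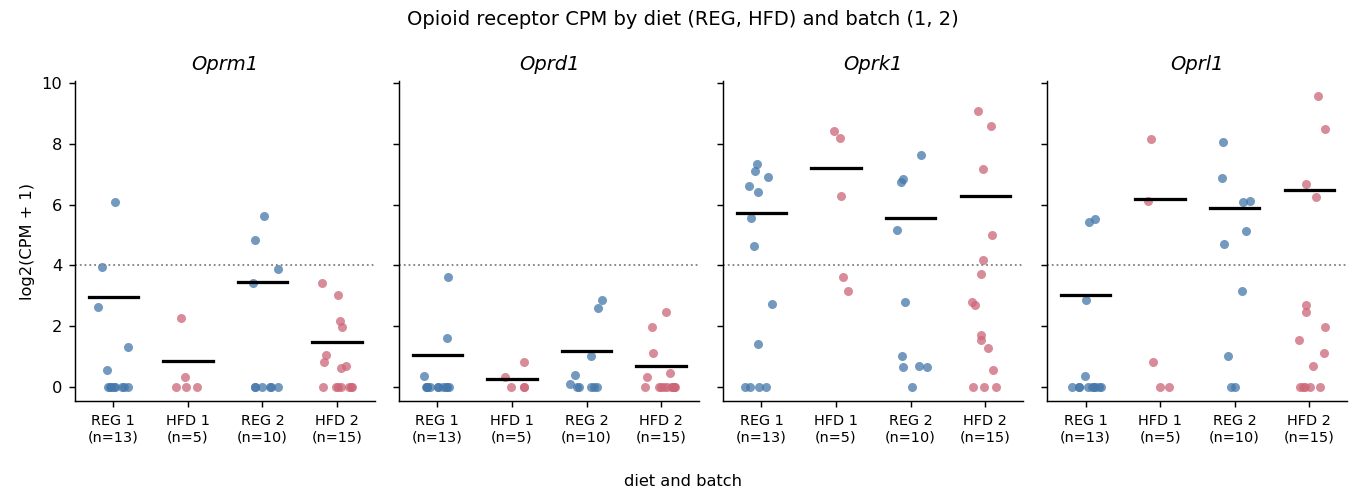
Level of each receptor in every cell as log2(CPM + 1) (vertical axis), by diet and batch (horizontal axis), with black bars at the mean CPM drawn on the same scale and a dotted line at 15 CPM. Cells of both diets overlap for each gene, and the highest *Oprm1* cells are REG cells while the highest *Oprk1* and *Oprl1* cells are HFD cells.

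The ratios of the receptors were set beside those of all genes. Of the 10802 genes past the filter, 9.04% had a log2 ratio of at least 1 and 14.3% of at most −1, and of the 2 receptors among them *Oprl1* passed the first limit and *Oprk1* neither. Of the 18731 genes with a count in both diets, 16.7% had a ratio of at least 1 and 23.5% of at most −1, and *Oprm1* and *Oprd1* belonged to the latter. The median ratio of filtered genes was −0.13, with a 5th percentile of −1.65 and a 95th of 1.35, so that *Oprl1*, at 1.50, lay above the 95th percentile and *Oprk1* below it. Among genes with a count in both diets these percentiles were −3.19 and 2.69, with *Oprm1* and *Oprd1* between them. *Oprk1* and *Oprl1* kept their sign in both batches, as did 46.2% of the filtered genes, and so did *Oprm1* and *Oprd1*, as did 36.8% of genes with a count in both diets. The sign of each receptor was the same with any 1 cell left out. This was also so for *Gad2*, *Calb1* and *Krt14*, while *Penk* and *Pdyn* changed sign, and the share over all genes was not counted. Scaling by TMM factors moved the median of filtered genes by 0.14 and gave 1412 genes at or above 1 and 1327 at or below −1, in place of 977 and 1541, and DESeq2 size factors moved it by 0.27, with 2332 and 1376 genes. The signs of the 4 receptors were the same under both scalings.

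**Figure D4:**
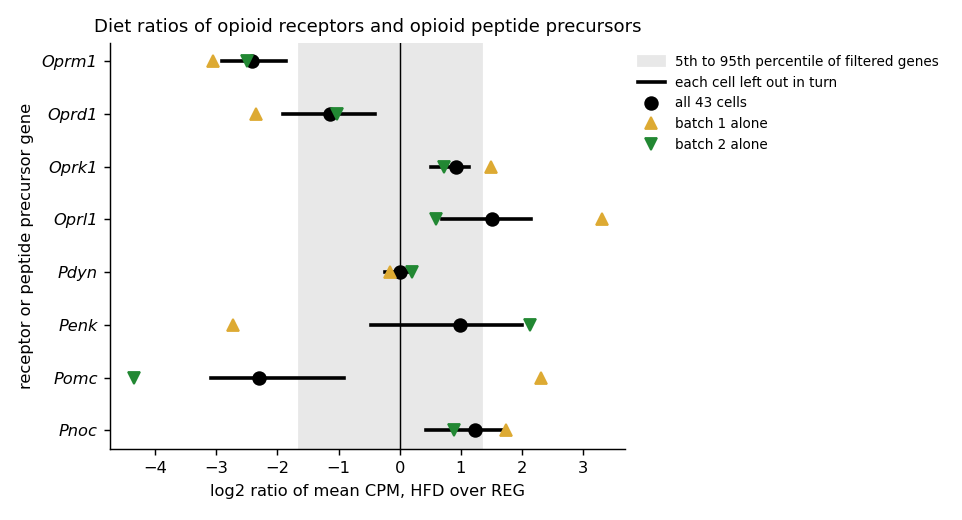
Log2 ratio of mean CPM, HFD over REG (horizontal axis), for the receptors and the opioid peptide precursors (vertical axis). Circles are all 43 cells, and triangles are batch 1 and batch 2 alone. Black bars span the values with each cell left out of the pooled 43, and the grey band is the 5th to 95th percentile of filtered genes. The receptors and *Pnoc* stay on 1 side of 0, and *Pdyn*, *Penk* and *Pomc* change sides between batches.

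Which transcripts the counts were assigned to could be read from the 2 deposited units, because the ratio of a count to its TPM within a cell is set by the length of the transcripts. The scale was taken in each cell from genes with 1 annotated transcript, of which between 96.2% and 100% returned their annotated length within 1 base. *Oprd1*, which has 1 annotated transcript of 4021 bases, returned 4021 bases in all 15 of its cells. The other receptors gave lengths that varied from cell to cell. A length equal to that of 1 transcript means that the program gave all counts to it, and other lengths are mixtures, while the positions of the reads are not in the tables.

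*Oprm1* has 31 annotated transcripts, 17 of them protein-coding, and 14 of the coding ones share 1158 coding bases and are followed by ends that differ between transcripts, except that Oprm1-203, Oprm1-208 and Oprm1-215 have the same one. These ends encode the last part of the intracellular tail of the receptor. In REG 3, with 42 counts, and REG 14, with 162 counts, the implied length was 1616 bases, that of Oprm1-213. Oprm1-230 fitted 3 cells with 1 count each, while the length of Oprm1-203 was met in no cell. The 3 ends are shown with the last 30 shared bases in lower case and the bases of each end in capitals.
Oprm1-203: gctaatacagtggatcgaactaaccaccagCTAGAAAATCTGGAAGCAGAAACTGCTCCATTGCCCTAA
Oprm1-213: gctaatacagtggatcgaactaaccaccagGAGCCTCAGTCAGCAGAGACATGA
Oprm1-230: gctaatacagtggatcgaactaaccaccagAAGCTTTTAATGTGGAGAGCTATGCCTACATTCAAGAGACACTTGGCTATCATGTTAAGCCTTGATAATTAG

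The other 6 cells with at least 20 *Oprm1* counts gave lengths between 1289 and 2050 bases that equalled no transcript. Both cells of Oprm1-213 were REG cells, 1 of each batch, and 6 of the 8 cells with at least 20 counts were REG cells.

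*Oprk1* lengths spread between 2501 and 4675 bases in the 20 cells with at least 20 counts. Its 3 protein-coding transcripts each have 1143 coding bases and differ outside the coding part, Oprk1-204 reaching 4675 bases through a last exon that runs 2117 bases further than that of Oprk1-203, a transcript of 2481 bases. REG 4, REG 11 and HFD 10 matched Oprk1-204, HFD 10 with 696 counts. In 6 cells with at most 2.38 counts of *Oprk1* the length was that of Oprk1-205, a retained-intron transcript, so that in these 4 REG and 2 HFD cells no *Oprk1* count was assigned to a coding transcript. The highest cells, HFD 20 and REG 14, gave 4108 and 4054 bases.

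*Oprl1* had at least 20 counts in 13 cells, of which 3 gave the length of 1 transcript and the rest gave other lengths. HFD 19, the highest cell with 4201 counts, and REG 17, with 219, gave 2999 bases, the length of the coding transcript Oprl1-201. In 8 cells, of which only HFD 12, with 107 counts, had at least 20, the length was 2297 bases, the length of Oprl1-206. That transcript has 2 exons and no annotated coding part, and it lacks the exons chr2:181715690-181715946 and chr2:181718377-181718732 of Oprl1-201, which hold 580 of its 1104 coding bases. The sequence across the last junction of Oprl1-201 is shown because Oprl1-206 holds only the part after the junction, with the bases from the exon that the transcripts share in capitals.
Oprl1-201: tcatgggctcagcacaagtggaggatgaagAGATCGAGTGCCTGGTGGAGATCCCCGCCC

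The shared last exon makes up 2161 of the 2297 bases of Oprl1-206, and reads within it are compatible with several transcripts, so whether the middle exons were skipped was not tested. The 8 cells comprised 3 REG and 5 HFD cells. REG 14, with 1129 counts, gave 1611 bases, shorter than both.

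**Figure D5:**
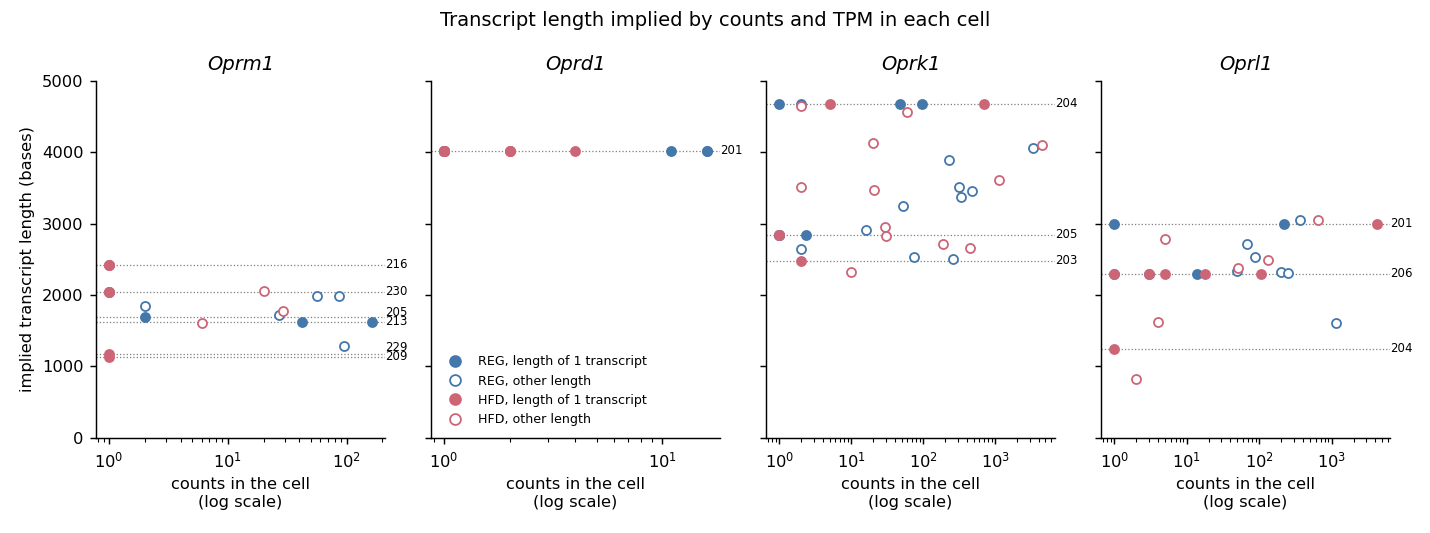
Implied transcript length in bases (vertical axis) against the counts of the receptor in the cell (horizontal axis, log scale), for every cell with a count, with REG in blue and HFD in red. Filled circles equal the length of 1 annotated transcript within 1 base, and dotted lines give the lengths of those transcripts with the end of their names. *Oprd1* stays at 4021 bases, and the other receptors range widely.

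For each receptor the 3 most correlated genes were taken from the 10802 past the filter, by Spearman correlation of CPM over the 43 cells. The highest of so many values are high through the choice alone, and they were not compared with any value expected without a relation. For *Oprk1* the genes were *Herc1* (0.76), *Lrp2bp* (0.68) and *Anks3* (0.68). *Herc1*, which encodes a large ubiquitin ligase, held 0.74 within REG cells, 0.87 within HFD cells and 0.74 after thinning. For *Oprl1* they were *Ly6h* (0.66), *Prrt2* (0.64) and *Ubr7* (0.56), of which *Ly6h* reached 0.86 in HFD and 0.50 in REG cells. For *Oprm1* they were *Phc2* (0.60), *Ift52* (0.59) and *Gdap1l1* (0.56), which were between 0.40 and 0.47 after thinning. For *Oprd1*, *Acp2* and *Nrbp2* (both 0.59) went to −0.15 and −0.10 after thinning, and *Ash2l* (0.59) to 0.27.

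Of the reference genes, which were not chosen by correlation, *Drd1* correlated at 0.41 with *Oprk1* (0.56 in REG and 0.22 in HFD cells) and between −0.06 and 0.05 with the others. *Pdyn* gave −0.34 with *Oprm1*, and *Nts* gave 0.30 with *Oprk1* and −0.29 with *Oprm1*. *Gad2*, *Gad1* and *Drd2* stayed between −0.16 and 0.38 with the 4 receptors. Total counts correlated with receptor CPM at 0.12 to 0.25 over all cells, at 0.25 to 0.50 within REG cells and at −0.12 to 0.17 within HFD cells. *Oprl1* gave both the 0.50 and the −0.12. *Ipcef1* gave 0.19 with *Oprm1*.

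*Pdyn* was the ligand gene with the highest mean. *Pdyn*, the precursor of dynorphins, had a mean of 542 TPM, was counted in all 43 cells, lay above 15 CPM in 41 and had 785 CPM in REG against 787 CPM in HFD cells, for a ratio of 0.00 on the log2 scale (−0.16 in batch 1 and 0.21 in batch 2). *Penk*, the enkephalin precursor, had 120 TPM and counts in 35 cells, and its ratio of 0.99 was −2.73 in batch 1, 2.14 in batch 2 and −0.50 without the 6 cells with microglial transcripts. Without HFD 16 alone it was −0.48, and without REG 1 it was 1.99. *Pomc* was counted in 11 cells, with −2.31 overall and opposite signs in the batches (2.31 and −4.35), −3.08 without HFD 4 and −0.92 without REG 16. *Pnoc*, the nociceptin precursor, was counted in 9 cells at a mean of 0.207 TPM. Its ratio was 1.23, with 1.74 in batch 1 and 0.88 in batch 2. It was 0.42 without HFD 16 and 1.68 without REG 2.

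The signalling partners are given from lists of known pathway members, whose counts are read against the 9.04% of filtered genes at or above 1 and the 14.3% at or below −1. Inhibitory G protein α-subunits were broadly present, with *Gnai2* at 243 and *Gnao1* at 192 TPM in all 43 cells, and 0 of 5 had a log2 ratio past 1 in either direction (median −0.17, 0.29 in batch 1 and 0.05 in batch 2). *Gnaz* had a ratio of 0.83 and *Gnai3* of −0.74. That of *Gnai3* was 0.93 in batch 1, −2.23 in batch 2, −2.32 without HFD 1 and −0.43 without REG 4. Of the 15 RGS and related genes, whose products speed the inactivation of G proteins, 13 passed the filter, 2 lay at or above 1 (9.04% of filtered genes) and none at or below −1 (14.3%), with a median of −0.17 that was 0.30 in batch 1 and −0.30 in batch 2. The leading ones were *Rgs2* (420 TPM) and *Rgs9* (312 TPM), with ratios of −0.08 and −0.37. *Rgs10* (1.31) was at 0.36 without the cells with microglial transcripts and at 2.11 without REG 16. *Rgs19* (1.11) was 2.69 in batch 1, 0.07 in batch 2 and 0.89 without HFD 3.

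Receptor kinases and arrestins, which end receptor signalling at the membrane, had 7 members past the filter, with 2 at or above 1 (9.04% of filtered genes), 1 at or below −1 (14.3%) and a median of −0.39. *Arrb2* had 5.12 CPM in REG and 20.6 CPM in HFD cells, a ratio of 2.01 that was 2.18 in batch 1, 1.83 in batch 2 and 2.08 without the cells with microglial transcripts. HFD 13 held 48.1% of the HFD level of *Arrb2*, and the ratio was 1.14 without it and 2.65 without REG 1. *Arrb1*, at 20.3 TPM the most abundant, gave −0.64. *Grk6* (1.10) and *Grk3* (−1.27) differed between batches, with 0.00 and 1.91, and 0.67 and −2.51. Without HFD 13 *Grk6* was at −0.19, and without REG 22 *Grk3* was at −0.76.

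Adenylyl cyclases, the enzymes these receptors inhibit, had 5 of 8 members past the filter, of which 3 lay at or below −1 (14.3% of filtered genes) and 1 at or above 1 (9.04%), with a median of −1.17 that was 0.08 in batch 1 and −2.01 in batch 2. *Adcy5*, the dominant striatal form, had 143 TPM and a ratio of −0.11. *Adcy3* had 62.9 CPM in REG and 14.6 CPM in HFD cells, a ratio of −2.10 (−1.97 and −2.42 in the batches), and *Adcy9* gave −1.88 (−0.99 and −2.09). *Adcy3* was at −2.76 without HFD 12 and at −1.68 without REG 15, and *Adcy9* at −2.92 without HFD 1 and at −1.38 without REG 4. Of the potassium and presynaptic calcium channels, 5 of 6 passed the filter and none of these passed a ratio of 1 in either direction (9.04% and 14.3% of filtered genes). Their median of −0.38 was −0.59 in batch 1 and 0.12 in batch 2. *Kcnj3* had a ratio of −0.38 over all cells but of 0.24 and 0.12 within the batches. *Cacna1a* (44.7 TPM), *Cacna1b* (13.7 TPM) and *Kcnj5* (4.47 TPM) gave −0.93, −0.30 and −0.44, of which *Cacna1b* was at 0.60 and *Kcnj5* at 0.34 in batch 2. Without REG 2 *Kcnj5* was at 0.26.

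Enzymes that degrade opioid peptides had 5 of 7 members past the filter, 2 at or below −1 (14.3% of filtered genes) and 1 at or above 1 (9.04%), with a median of −0.51 that was 0.40 in batch 1 and −0.84 in batch 2. *Npepps*, at 132 TPM the highest, gave −0.51 (0.40 and −1.13 in the batches), and the endothelin-converting enzymes *Ece1* (34.5 TPM) and *Ece2* (6.98 TPM) gave −1.75 and −1.38, below 0 in both batches. *Ece2* was at −0.38 without REG 21 and at −2.45 without HFD 17, cells that held 52.3% and 54.8% of the level of their diet. Striosome markers of the dorsal striatum other than *Oprm1* were at unequal levels. *Tac1*, *Pdyn*, *Lypd1* and *Nnat* had means of 2455, 542, 98.2 and 87.6 TPM, and *Sema5b* had 14.4 TPM with a median of 1.34. *Kremen1* had 3.52 TPM, was counted in 22 cells and did not pass the filter. Its ratio was 2.42 (3.59 in batch 1 and 1.63 in batch 2), 0.83 without HFD 5 and 3.42 without REG 12. Matrix markers were present, with *Calb1* at 316 and *Rasgrp2* at 130 TPM. None of the 5 filtered genes in each list passed a ratio of 1 in either direction, with medians of −0.55 and −0.05, the first of which was 0.21 in batch 2.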

How the data were processed

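The deposited tables covered 35825 genes in 43 cells. Per the study's methods and the submitters' processing notes, the authors pseudo-aligned SMART-Seq reads to the GRCm38 transcriptome with kallisto, summed transcripts to gene symbols, left out cells low in reads or genes, and deposited estimated counts (expected counts, not normalized) and TPM scaled by the authors within each cell. Each column was matched to its sample by title, with 0 columns left over.

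CPM was the estimated count over the total of the cell, times 1000000. Ratios divide mean CPM without a pseudocount. Their intervals (95%) carry the Poisson error of the counts, and shares have exact Clopper-Pearson intervals. No test was run between diets, since mice are not named and each diet is 1 sample. Genes past the filter had a mean CPM above 4 and 5 or more cells over 15 CPM. Thinning drew 150000 counts per cell without replacement. Named genes were the members, the peptide precursors, 2 members of each list by mean TPM and 2 by absolute ratio, the 3 genes most correlated with each receptor, exon neighbours and fixed references. The members and lists were chosen with earlier results of these data known. Old symbols of 3 list genes were not in the tables.

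Transcript lengths and sequences came from GENCODE M21, of the same build as the files but another release than the authors' Ensembl set. Lengths for cells with fewer than 20 counts were added after the data were seen. The calculation of ratios, their intervals and the rank correlations was checked on simulated counts for 10802 genes. These counts had Poisson error only, as the intervals assume, and no spread between cells or mice. The check therefore cannot show whether the intervals are wide enough for these cells. Alternatives covered TPM, TMM (edgeR), DESeq2 size factors, an edgeR coefficient with batch, other summaries, depth, batch and leaving out each cell. Counts were rounded for edgeR and DESeq2. R 4.3.3 ran edgeR 4.0.16 and DESeq2 1.42.0, and Python 3.11.15 ran pandas 2.3.3, scipy 1.17.1 and Biopython 1.88.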

Additional observations from a re-analysis of the deposited data

Results flagged for a closer look

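Only the 5 HFD cells of batch 1 and the 10 REG cells of batch 2 were of a size for Dixon's rule (at 95%). The rule asks whether 1 cell stands apart, and it gave 8 groups over the 4 receptors. Its chance rate of about 1 in 20 holds for normally distributed values. CPM with many values of 0 are not so distributed, so the flags cannot be set against that rate. HFD 2 stood apart for *Oprm1* with 3.81 CPM, next to 0.258 CPM, and its value rests on 1 count. HFD 1 stood apart for *Oprl1* with 286 CPM, next to 68.5 CPM, from 51 counts. REG 16 stood apart for *Oprl1* with 264 CPM, next to 117 CPM, from 366 counts.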

How the results depend on the processing

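The sign of each diet ratio held under all 12 alternatives run for *Oprm1*, 11 for *Oprd1*, 13 for *Oprk1* and 13 for *Oprl1*, and with each cell left out, medians of *Oprm1* and *Oprd1* aside, while its size moved beyond the counting interval under many of them, and the cause was not tested. Scaling by TMM factors, by DESeq2 size factors or by totals without *Lars2* and *Gm19220*, which take the most counts, gave −1.46, −1.65 and −1.54 for *Oprm1* and 1.90, 3.21 and 1.36 for *Oprl1*. TPM gave 1.07 for *Oprk1* and 1.30 for *Oprl1*, medians over cells 0.70 and 2.52, and the edgeR coefficient 1.70 for *Oprl1*. The difference of mean log2(CPM + 1) was −0.58 for *Oprm1*, 0.38 for *Oprk1* and 0.42 for *Oprl1*. Batch 1 alone gave −3.06, 1.49 and 3.31 for these, and batch 2 gave 0.73 for *Oprk1* and 0.59 for *Oprl1*. Without the cells with microglial transcripts the values were −1.60, 0.75 and 1.77, and without cells under 500000 counts they were −2.76 for *Oprd1*, 1.13 for *Oprk1* and 1.31 for *Oprl1*. Leaving out each cell gave −2.90 to −1.85 for *Oprm1*, −1.91 to −0.40 for *Oprd1*, 0.51 to 1.13 for *Oprk1* and 0.69 to 2.15 for *Oprl1*.

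For *Oprm1*, *Oprd1*, *Oprk1* and *Oprl1* in turn, the share of cells was 20.9, 6.98, 53.5 and 37.2% at 5 counts or more, 6.98, 0, 44.2 and 32.6% above 15 CPM, and 25.6, 2.33, 58.1 and 41.9% after thinning, and in batch 1 *Oprl1* was in 38.9% of cells. The log2 ratio of *Oprl1* over *Oprk1* was 0.02 by mean TPM, −2.30 by median TPM, −0.35 by mean CPM, −0.13 in REG cells, −1.23 in batch 1 and 0.65 in batch 2. *Oprk1* over *Oprm1* was 3.79 by CPM, 1.41 in REG cells, 4.73 in HFD cells, 3.14 in batch 1 and 2.32 in batch 2, and *Oprm1* over *Oprd1* was 2.58 by CPM and 3.31 in HFD cells. Without the filter 3119 genes lay at or above 1 and 4405 at or below −1, and where 10 or more cells had to exceed 15 CPM, 523 and 963. No ratio of medians was among the alternatives for *Oprm1*, whose medians of 0 CPM in REG and 0.129 CPM in HFD cells ran against its ratio of means, or for *Oprd1*, whose medians were 0 in both diets, nor was a thinned ratio for *Oprd1*. No paired analysis was possible because neither cells nor mice can be matched between diets.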
